A study of Caenorhabditis elegans with 30 samples.

Results

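The 10 genes described here are cuticle collagens of Caenorhabditis elegans whose mutants have an altered body shape or surface: bli-1 and bli-2, dpy-2, dpy-3, dpy-7, dpy-8 and dpy-10, and rol-6, sqt-1 and sqt-3. They were found by gene name, and all 10 were present among the 20484 genes of each deposited table. Levels came from RNA sequencing of whole worms collected late in the fourth larval stage (L4), from populations synchronised by bleaching and kept at 20 °C on OP50 bacteria. There were 6 genotypes with 5 replicates each. The daf-2 triple mutant carried daf-2(e1370), his-72(tm2066) and his-71(ok2289), and the daf-2 mutant carried e1370 alone. The nuo-6 triple mutant carried nuo-6(qm200) with the same his-72 and his-71 alleles, and the nuo-6 mutant carried qm200 alone. The H3.3 double mutant carried the his-72 and his-71 alleles alone, and wild type (WT) carried none of these. The plots name the mutants by their genes, as daf-2;his-72;his-71, nuo-6;his-72;his-71 and his-72;his-71. The gene daf-2 encodes the insulin receptor, nuo-6 a subunit of respiratory chain complex I, and his-71 and his-72 the broadly expressed forms of histone H3.3. Other H3.3 genes remained in the strains that lack his-71 and his-72, and e1370 and qm200 are known as reduction-of-function alleles. Below, loss of H3.3 and without H3.3 mean the loss of his-71 and his-72 alone.

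The worm cuticle is a collagen matrix that the epidermis secretes anew before each moult. Its collagens are transcribed in waves within each larval stage, the furrow collagens among the early ones, and some collagens are made for the cuticle of 1 stage only. Annular furrows are the circumferential grooves of the surface and need DPY-2, DPY-3, DPY-7, DPY-8 and DPY-10. Struts are the columns that join the inner and outer layers of the adult cuticle and need BLI-1 and BLI-2, whose loss makes the cuticle blister. ROL-6, SQT-1 and SQT-3 form the cuticle of several stages, and their mutants roll, or are short or long.

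The deposited tables gave 1 FPKM value per gene and genotype (fragments scaled to transcript length and library size), with no value per replicate. No spread between replicates, test or p-value could therefore be had, and higher and lower describe the deposited values alone. A gene was called higher or lower where the ratio reached 2 and the larger value reached 5 FPKM. The 7 comparisons share genotypes, so their counts are not independent of each other. Sequencing depth was unknown. The summed FPKM was lowest in the daf-2 triple mutant (935102) and highest in nuo-6 (1508331). As a check of the labels, his-71 and his-72 stayed at or under 0.408 FPKM in the 3 genotypes that lack them and had at least 223 FPKM in the other 3. In whole worms, a smaller share of epidermis and less RNA per epidermal cell cannot be told apart.

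Among the members, 7 had a locus of their own in the authors' tables and 3 shared one. bli-1 (WBGene00000251) shared a listed locus of 19246 bases with the collagen genes col-39, col-79 and col-80 and with ggr-1 and dph-2. bli-2 (WBGene00000252) shared its locus with zyg-1, a centriole duplication kinase gene, and dpy-8 (WBGene00001070) shared its own with C31H2.14. How reads were divided within such a locus is not stated, so the values of bli-1, bli-2 and dpy-8 are uncertain. C31H2.14 had 4.11 to 24.2 FPKM and zyg-1 had 6.30 to 14.7 FPKM over the 6 genotypes. Within the bli-1 locus col-79 had a pattern like that of bli-2, with 4.31 FPKM in the daf-2 triple mutant, 0.786 in daf-2, 14.7 in the nuo-6 triple mutant, 211 in nuo-6, 39.5 in the H3.3 double mutant and 68.9 in WT. Its neighbour col-39 stayed between 240.8 and 585.8 FPKM. The third collagen of that locus, col-80, was unlike bli-1 in daf-2, with 323 FPKM there against 55.8 in WT. It had 245 FPKM in the daf-2 triple mutant, 84.2 in the nuo-6 triple mutant, 837 in nuo-6 and 34.4 in the H3.3 double mutant.

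All 10 are protein-coding genes with 2 to 5 exons in the longest annotated transcript (WBcel235). dpy-10 (chromosome II, 6710149 to 6712227, minus strand) and dpy-2 (chromosome II, 6714292 to 6715971, plus strand) lie head to head with 2064 bases between them. Also on chromosome II are bli-2 (5651394 to 5652434), rol-6 (8733050 to 8734239), bli-1 (10708960 to 10712156) and sqt-1 (11336693 to 11337837). dpy-3 (2144605 to 2145647), dpy-8 (5148804 to 5150476) and dpy-7 (7536467 to 7537792) lie on chromosome X, and sqt-3 (12352745 to 12354320) on chromosome V. In the phenotype terms of the authors' tables, 8 members carry "helical cuticle", a term of 11 genes in all, and the same 8 carry "annulae morphology variant", a term of 22 genes. Both terms are missing from bli-1 and bli-2, which carry "blistered" (60 genes). "Struts variant" (14 genes) is likewise on the 8 furrow, rol and sqt collagens and not on the bli genes.

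The strut collagens spanned the widest range. bli-1 had 5.11 FPKM in the daf-2 triple mutant, 0.131 in daf-2, 22.1 in the nuo-6 triple mutant, 88.9 in nuo-6, 51.1 in the H3.3 double mutant and 90.6 in WT. Its highest value, in WT, was 689 times its lowest, in daf-2, and a value as low as 0.131 FPKM is imprecise. bli-2 had 18.95 FPKM in the daf-2 triple mutant, 3.40 in daf-2, 53.9 in the nuo-6 triple mutant, 636 in nuo-6, 141 in the H3.3 double mutant and 272 in WT. Its range was 187-fold. The order of the genotypes was the same for both genes from the H3.3 double mutant downwards, with daf-2 last. At the top, bli-1 was nearly level in WT and nuo-6 (ratio 1.02), whereas bli-2 was 2.34-fold higher in nuo-6 than in WT.

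The furrow collagens moved over a far narrower range and stayed close to one another. dpy-7, the member whose protein marks the furrows, had 71.97 FPKM in the daf-2 triple mutant, 103 in daf-2, 169 in the nuo-6 triple mutant, 101 in nuo-6, 177 in the H3.3 double mutant and 218 in WT. dpy-3, which is needed to assemble DPY-7, stood at 87.3, 122, 143, 146, 169 and 226 FPKM, genotypes listed as for dpy-7. Both genes were highest in WT. dpy-2 stood at 67.7, 96.4, 127, 74.8, 162 and 196 FPKM in that order, and its neighbour dpy-10 at 69.9, 93.5, 133, 80.2, 145 and 181 FPKM. dpy-8 stood at 52.3, 89.9, 138, 109, 155 and 195 FPKM. Each of the 5 was highest in WT, second in the H3.3 double mutant and lowest in the daf-2 triple mutant, with highest over lowest between 2.58-fold (dpy-3) and 3.72-fold (dpy-8). Within a genotype the highest of the 5 was 1.22 to 1.36 times the lowest in 4 genotypes, 1.67 times in the daf-2 triple mutant and 1.96 times in nuo-6. In nuo-6, dpy-3 stood at 146 FPKM while its partners dpy-2 and dpy-10 were at 74.8 and 80.2 FPKM. The spread of single replicates being unknown, neighbours in these orders with ratios as small as 1.02 cannot be ranked.

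The rol and sqt collagens were the most abundant members in 5 genotypes. In nuo-6, bli-2 (636 FPKM) was above all 3. sqt-3, a substrate of the procollagen protease DPY-31, had 549 FPKM in the daf-2 triple mutant, 461 in daf-2, 777 in the nuo-6 triple mutant, 437 in nuo-6, 1085 in the H3.3 double mutant and 1376 in WT. sqt-1, which interacts genetically with rol-6, had 279, 389, 589, 516, 753 and 847 FPKM in that order. rol-6 had 147, 190, 374, 296, 434 and 417 FPKM, and was the 1 member with its highest value in the H3.3 double mutant. On this per-length scale sqt-1 stayed between 1.58 and 2.05 times rol-6 in every genotype. sqt-3 was above sqt-1 in 5 genotypes and below it in nuo-6, at 0.848 times its level.

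**Figure D1:**
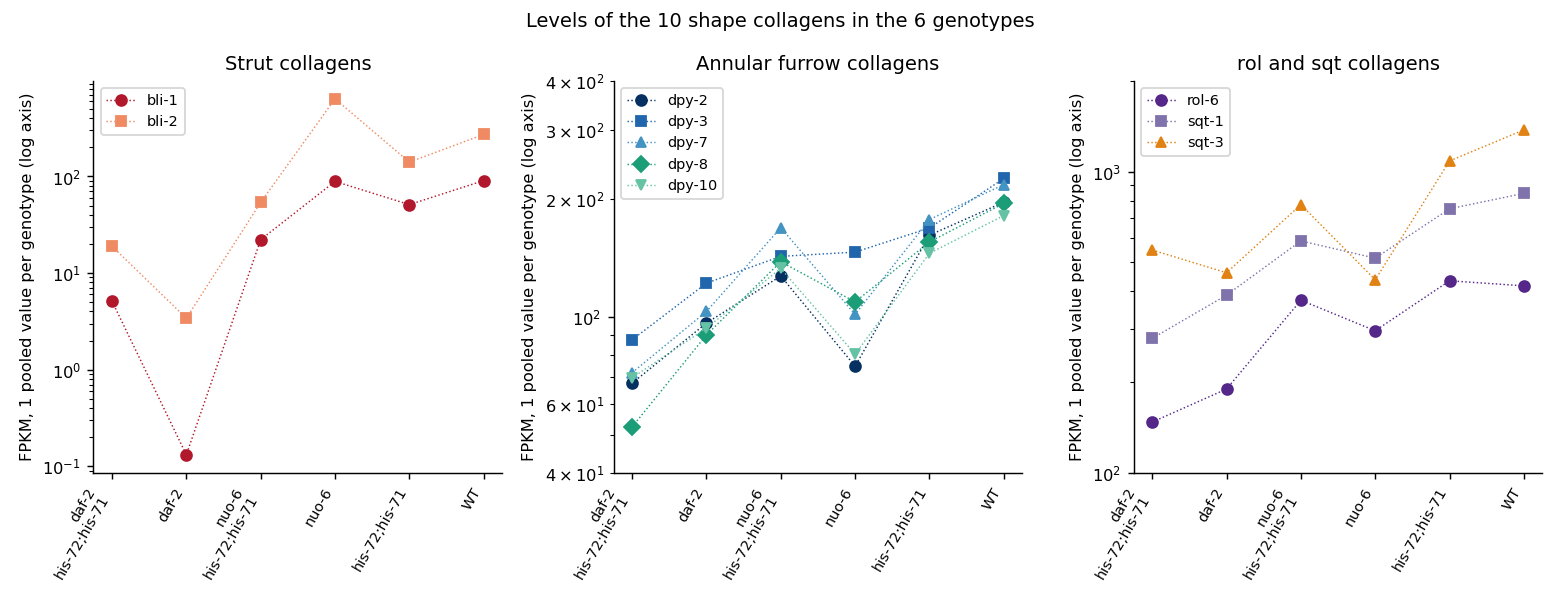
FPKM (log axis, a different range in each panel) of the 10 shape collagens in the 6 genotypes, 1 pooled value per genotype, with dotted lines joining the values of a gene. bli-1 and bli-2 drop to 0.131 and 3.40 FPKM in daf-2, while the 5 furrow collagens lie together and are highest in WT.

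Taken relative to the geometric mean of the 5 furrow collagens, bli-1 stood at 7.42% in the daf-2 triple mutant, 0.131% in daf-2, 15.7% in the nuo-6 triple mutant, 89.4% in nuo-6, 31.7% in the H3.3 double mutant and 44.7% in WT. bli-2 stood at 27.5%, 3.39%, 38.1%, 640%, 87.3% and 134% in the same genotypes. The balance of strut to furrow transcripts thus differed more between genotypes than did the furrow level itself, which was 68.9 FPKM in the daf-2 triple mutant, 100.4 in daf-2, 141 in the nuo-6 triple mutant, 99.4 in nuo-6, 161 in the H3.3 double mutant and 202 in WT. The 10 members summed to 1349 FPKM in the daf-2 triple mutant, 1548 in daf-2, 2525 in the nuo-6 triple mutant, 2485 in nuo-6, 3271 in the H3.3 double mutant and 4018 in WT.

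The first comparison asked what the loss of H3.3 does in an otherwise wild-type worm. No member was called in the H3.3 double mutant against WT, beside 1.14% of all compared genes called higher and 0.902% called lower. The values of 9 members were nonetheless below those of WT, and that of rol-6 was slightly above it (log2 ratio 0.06, or -0.02 with genotypes scaled to equal median ratios over all compared genes). bli-2 came nearest to a call, with 141 FPKM in the H3.3 double mutant against 272 FPKM in WT, a 1.93-fold difference, and bli-1 was 1.77-fold lower. These 2 were the members lower at a ratio of 1.5, beside 2.36% of all compared genes. bli-2 passed the 2-fold line at a log2 ratio of -1.02 when genotypes were scaled to equal median ratios. The median log2 ratio was -0.89 for the strut, -0.32 for the furrow and -0.17 for the rol and sqt collagens, beside 0.07 for all compared genes. It was -0.32 for the 10 members together. For 102 compared other genes annotated as structural constituents of cuticle it was -0.38, with 7 called lower and 0 higher. Of 10 compared collagens with other shape mutants, bli-6 alone was called, 2.28-fold lower. Of 7 genes induced by furrow damage, 0 were called. The yolk protein genes, markers of adults, summed to 16.0 FPKM in the H3.3 double mutant and 38.3 FPKM in WT, with vit-2 2.55-fold and vit-6 2.16-fold lower. The adult cuticle genes summed to 6.83 and 11.1 FPKM. Of the germline markers 0 of 4 were called, and the sperm marker peel-1 was 3.82-fold higher. The part of stage in the values of the members was not tested.

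Reduced insulin signalling was followed in daf-2 against WT. Here 8 of the 10 members were lower and 0 higher, beside 13.2% of all compared genes lower and 15.1% higher. bli-1 fell to 0.131 FPKM in daf-2, against 90.6 FPKM in WT, and bli-2 was 80.0-fold lower. The other 6 called members were 2.04-fold (dpy-2) to 2.98-fold (sqt-3) lower. The 2 that missed the line were close to it, dpy-10 at 1.94-fold and dpy-3 at 1.85-fold lower. The median log2 ratio was -7.87 for the strut collagens, -1.03 for the furrow collagens and -1.14 for rol-6, sqt-1 and sqt-3, beside 0.01 for all compared genes. At a ratio of 3, bli-1 and bli-2 were the 2 members called, beside 7.15% of all compared genes lower.

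Collagens with other shape mutants were lower too, 8 of 10 compared and 0 higher. rol-1, whose mutants roll, was 265-fold lower, and bli-6, whose mutants blister, 254-fold. The body length collagen lon-3 was 6.07-fold lower and dpy-17, a partner of SQT-3, 11.9-fold lower. Of the 11 compared genes that fold, process and cross-link collagen, 0 were called. The furrow collagens are known as a damage sensor of the epidermis. Of 7 genes known to respond to their loss, 5 were higher and 0 lower in daf-2. The largest ratios were those of gst-4 (9.10-fold), hmit-1.1 (7.34-fold), the glycerol synthesis gene gpdh-1 (3.20-fold) and the antimicrobial peptide gene nlp-34 (2.77-fold). Among these, gst-4 and gpdh-1 are also induced by other stresses. Any link between these genes and the furrow collagen values was not tested, here or in the other comparisons. The moulting gene mlt-10 was 5.17-fold lower and lin-29, the regulator of adult epidermal fate, 2.58-fold lower. Of 9 genes of the TGF-beta pathway that sets body size, 0 were called in this or any other of the 7 comparisons. The epidermal list summed to 247 FPKM in daf-2 and 238 FPKM in WT, the adult cuticle genes to 3.22 and 11.1 FPKM, and the yolk genes to 4.65 and 38.3 FPKM. All 4 germline markers were lower in daf-2, summing to 62.7 FPKM in daf-2 and 319 FPKM in WT. The part of stage or germline content in the values of the members was not tested.

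The same mutation without H3.3, in the daf-2 triple mutant against the H3.3 double mutant, again gave 8 of 10 members lower and 0 higher, beside 13.5% of all compared genes lower and 13.2% higher. bli-1 had 5.11 FPKM in the daf-2 triple mutant against 51.1 FPKM in the H3.3 double mutant, 9.99-fold lower. bli-2 was 7.43-fold lower. The remaining calls ran from dpy-10 (2.08-fold lower) to dpy-8 (2.97-fold lower), with sqt-3 at 1.98-fold and dpy-3 at 1.93-fold just short. When genotypes were scaled to equal median ratios of 7 epidermal genes that are not collagens, 4 members were lower: bli-1, bli-2, dpy-8 and rol-6. The share of all compared genes under that scaling is not given here, so this count cannot be read against the 13.5%. At a ratio of 3, bli-1 and bli-2 alone were lower, beside 5.32% of all compared genes. The median of those epidermal genes was itself -0.56 (log2) in this comparison, and che-14 among them was called 2.08-fold lower. Markers of other tissues had medians of -0.91 (body wall muscle), -0.98 (intestine), 0.10 (neuron) and -0.26 (germline).

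Other collagens with shape mutants split, with 8 of 11 lower and 2 higher, dpy-14 by 378-fold and dpy-17 by 10.6-fold. Of the epidermal and moulting regulators 3 of 9 were lower, namely mlt-10 (4.01-fold), lin-29 (3.86-fold) and the protease inhibitor gene mlt-11 (2.10-fold). Furrow damage genes were 3 of 7 higher, with nlp-34 6.07-fold, gst-4 3.22-fold and gpdh-1 2.09-fold. Genes that fold, process and cross-link collagen gave 0 calls of 11 here as well.

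Across both pairs the furrow ratios of the daf-2 mutation lay close together in the values as deposited. The median log2 ratio of the 5 was -1.03 with H3.3 and -1.26 without it. That of the epidermal genes was 0.05 with and -0.56 without H3.3, so the likeness depends on the scaling. The 2 comparisons share no genotype. For bli-1 the log2 ratios were -9.43 with and -3.32 without H3.3, and for bli-2 they were -6.32 and -2.89. Whether the effects differ could not be tested.

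Loss of H3.3 on top of daf-2 was followed in the daf-2 triple mutant against daf-2. Both bli genes, 2 of 10 members, were called higher and 0 members lower, beside 17.1% of all compared genes higher and 12.3% lower. The count of higher members was thus near the share of all compared genes. bli-1 had 5.11 FPKM in the daf-2 triple mutant against 0.131 FPKM in daf-2, 38.9-fold higher by an imprecise denominator, and bli-2 had 18.95 against 3.40 FPKM, 5.57-fold higher. Neither reached 20 FPKM in the daf-2 triple mutant, nor the 51.1 and 141 FPKM of the H3.3 double mutant. The 5 furrow collagens had log2 ratios between -0.78 and -0.42, sqt-1 -0.48 and rol-6 -0.37. At a ratio of 1.5, dpy-8 alone was lower, beside 30.3% of all compared genes. sqt-3 had 549 FPKM in the daf-2 triple mutant and 461 FPKM in daf-2 (log2 ratio 0.25). The median of all compared genes was -0.15 and that of the epidermal genes -0.33.

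Stage markers differed between these genotypes as well. The 3 collagen and cuticlin genes of the dauer cuticle (col-2, col-40 and cut-1; the dauer is a resistant larval stage that lies outside the course to L4) summed to 2623 FPKM in the daf-2 triple mutant, 9.90 in daf-2 and at most 2.29 in the other 4 genotypes. The 3 yolk protein genes vit-2, vit-5 and vit-6, markers of adults, summed to 6007 FPKM in the daf-2 triple mutant against 4.65 in daf-2. The 4 adult cuticle collagens summed to 365 FPKM in the daf-2 triple mutant and 3.22 in daf-2, and 4 germline markers to 378 and 62.7 FPKM. Against the H3.3 double mutant, too, these lists were apart, with 1.005 FPKM for dauer cuticle, 16.0 for yolk and 6.83 for adult cuticle genes in that double mutant. Of collagens with other shape mutants, 4 of 11 were higher and 0 lower, among them rol-1 (53.9-fold) and bli-6 (46.6-fold). dpy-14 had 145 FPKM in the daf-2 triple mutant and 0.804 in daf-2, and dpy-17 had 163 and 1.22. Of the furrow damage genes 2 of 7 were lower, hmit-1.1 (3.89-fold) and gst-4 (2.61-fold), and nlp-34 was higher (log2 ratio 1.32). Processing genes were 3 of 11 lower and 0 higher, namely the prolyl hydroxylase gene phy-2 (2.34-fold), its partner pdi-2 (2.19-fold) and dpy-11 (2.09-fold), which encodes a thioredoxin-like protein. The part of stage or of a mixture of stages in the members' values was not tested.

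Impaired complex I was followed in nuo-6 against WT, which split the members. Here 4 were lower and 1 higher, beside 5.47% of all compared genes lower and 20.6% higher. The lower ones were sqt-3 (437 FPKM in nuo-6 against 1376 FPKM in WT, 3.15-fold), dpy-2 (2.62-fold), dpy-10 (2.26-fold) and dpy-7 (2.15-fold). The higher one was bli-2, with 636 FPKM in nuo-6 against 272 FPKM in WT, 2.34-fold. bli-1 was not called (log2 ratio -0.03, or 0.50 with epidermal scaling). The other furrow, rol and sqt genes had log2 ratios between -0.84 (dpy-8) and -0.50 (rol-6, which epidermal scaling puts at 0.03). At a ratio of 1.5, 7 members were lower, beside 14.4% of all compared genes. At a ratio of 3, sqt-3 alone was lower, beside 2.31%, and 0 were higher, beside 11.2%. The epidermal genes were also low in nuo-6, with a median log2 ratio of -0.52 beside 0.12 for all compared genes. Scaled to them, sqt-3 was the 1 member still called lower, and bli-2 the 1 called higher. The shares of all compared genes under that scaling are not given here.

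Adult markers were higher in nuo-6 as well. The adult cuticle collagens col-7, col-19, col-62 and col-119 were all higher and summed to 2240 FPKM in nuo-6 against 11.1 in WT, with col-19 at 1194 against 7.10 FPKM. The yolk protein genes summed to 1382 FPKM in nuo-6 against 38.3 in WT. Among collagens with other shape mutants rol-1 (526 FPKM in nuo-6 against 171 in WT, 3.07-fold) and bli-6 (1075 against 406 FPKM, 2.65-fold) were higher, and 3 were lower. The nuclear receptor gene nhr-25, which the epidermis needs to moult, was 3.64-fold lower and mlt-10 3.04-fold lower. Furrow damage genes were 4 of 7 higher and 1 lower, with gst-4 5.60-fold and nlp-34 4.03-fold higher and hmit-1.1 3.37-fold lower. The part of developmental stage in these values was not tested.

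**Figure D2:**
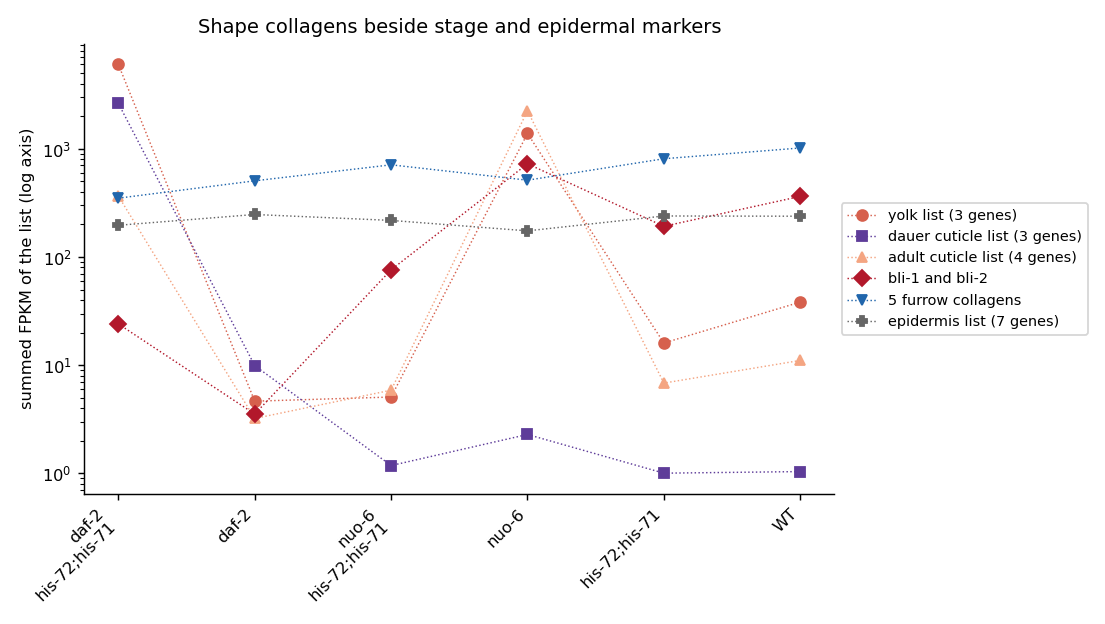
Summed FPKM (log axis) of bli-1 and bli-2, of the 5 furrow collagens and of marker lists for yolk, dauer cuticle, adult cuticle and epidermis in the 6 genotypes, 1 pooled value each, with dotted lines joining the values of a list. Yolk genes stand at 6007 FPKM in the daf-2 triple mutant and 1382 in nuo-6 against 38.3 in WT, dauer cuticle genes at 2623 in the daf-2 triple mutant. The sum of the epidermal list stays between 174 and 247, but single genes of it move apart. Its gene lin-26 has 51.3 FPKM in the daf-2 triple mutant and 22.7 in daf-2, while the median log2 ratio of the list is -0.33 there.

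Without H3.3, no furrow, rol or sqt collagen was called for the nuo-6 mutation. In the nuo-6 triple mutant against the H3.3 double mutant the bli genes were lower, 2 of 10 members, beside 6.73% of all compared genes lower and 5.76% higher. bli-1 had 22.1 FPKM in the nuo-6 triple mutant against 51.1 FPKM in the H3.3 double mutant (2.31-fold lower), and bli-2 had 53.9 against 141 FPKM (2.61-fold lower). The other 8 lay between log2 ratios of -0.48 (sqt-3) and -0.07 (dpy-7). At a ratio of 3, 0 members were lower, beside 4.06% of all compared genes. bli-2 was thus higher in nuo-6 than in WT but lower in the nuo-6 triple mutant than in the H3.3 double mutant. rol-1 was 2.10-fold lower and was the 1 call among 10 compared collagens with other shape mutants. Among 7 furrow damage genes gst-4 was 5.51-fold higher and hmit-1.1 4.22-fold lower, with no furrow collagen called. Adult cuticle genes summed to 5.87 FPKM in the nuo-6 triple mutant and 6.83 in the H3.3 double mutant. The yolk genes summed to 5.08 FPKM in the nuo-6 triple mutant and 16.0 FPKM in the H3.3 double mutant, with vit-6 4.43-fold and vit-2 2.86-fold lower. Both compared sperm markers were lower. Germline markers were 4 of 4 lower, summing to 162 FPKM in the nuo-6 triple mutant and 384 FPKM in the H3.3 double mutant. The part of these lists in the values of the bli genes was not tested.

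H3.3 loss in the nuo-6 background was followed in the nuo-6 triple mutant against nuo-6. The bli genes, 2 of 10 members, were lower and no member was higher, beside 16.9% of all compared genes lower and 6.92% higher. The count of lower members was thus near the share of all compared genes. bli-2 had 53.9 FPKM in the nuo-6 triple mutant against 636 FPKM in nuo-6 (11.8-fold lower), and bli-1 had 22.1 against 88.9 FPKM (4.01-fold lower). The values of dpy-2, dpy-7, dpy-10 and sqt-3 were above those in nuo-6, at log2 ratios of 0.77, 0.74, 0.73 and 0.83, and passed a ratio of 1.5, beside 15.6% of all compared genes, but not of 2. dpy-3 was level (log2 ratio -0.04). dpy-8, rol-6 and sqt-1 had log2 ratios of 0.34, 0.34 and 0.19, which epidermal scaling turns to -0.05, -0.05 and -0.19. rol-1 and bli-6 were lower as well, at log2 ratios of -3.59 and -3.40. Processing genes were 3 of 11 higher, led by the peroxidase gene mlt-7 (2.44-fold). Furrow damage genes were 4 of 6 compared lower and 0 higher, led by nlp-34 (5.66-fold). In this comparison nhr-25 was 4.51-fold higher, and all 4 adult cuticle and all 3 yolk genes were lower, summing to 5.87 FPKM and 5.08 FPKM in the nuo-6 triple mutant against 2240 FPKM and 1382 FPKM in nuo-6. The part of stage in these values was not tested.

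**Figure D3:**
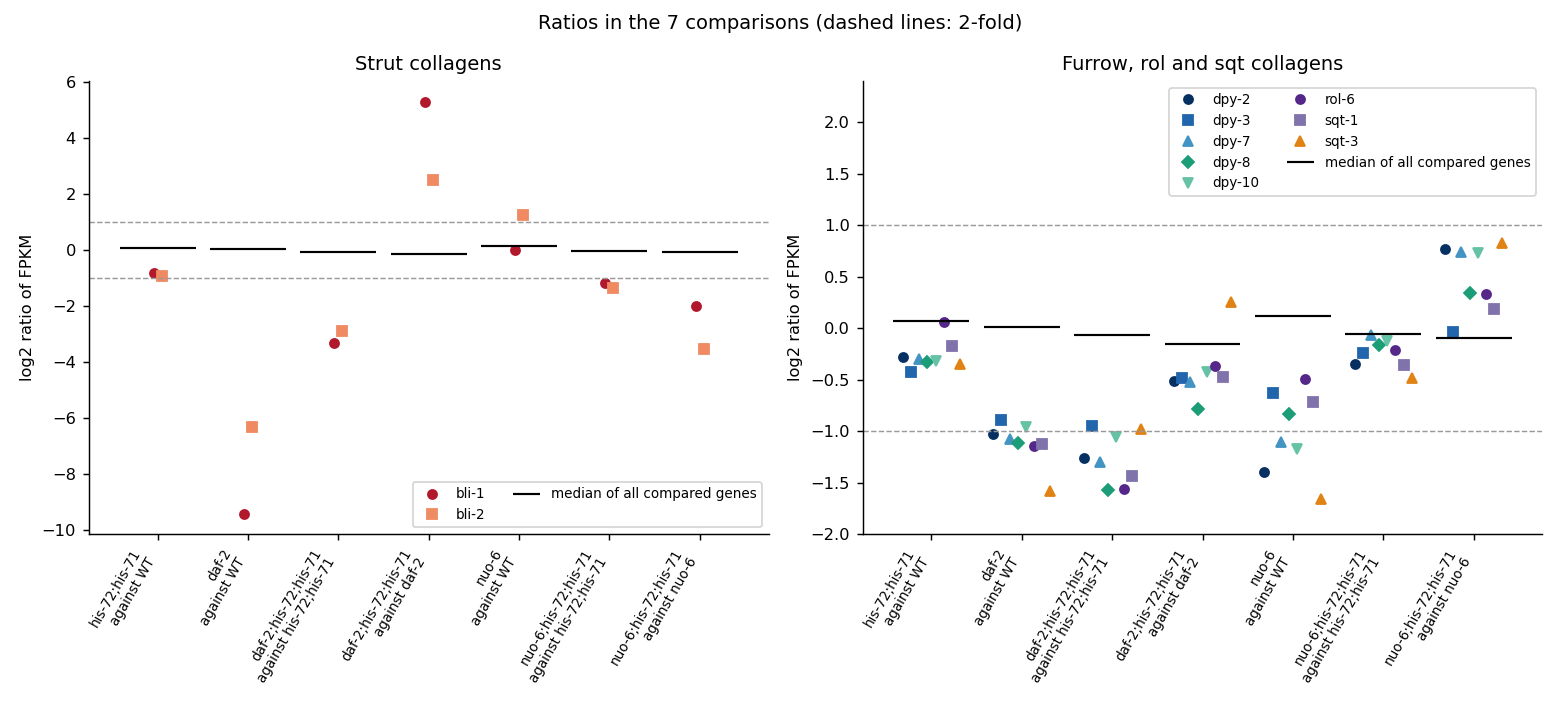
Log2 ratios of FPKM in the 7 comparisons for the strut collagens (left) and the furrow, rol and sqt collagens (right, a narrower axis). Black bars are the median of all compared genes and dashed lines mark 2-fold. bli-1 and bli-2 range from -9.43 to 5.28, while the other 8 stay between -1.65 and 0.83.

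Likeness of pattern was measured as the root mean square difference of log2 profiles over the 6 genotypes, each centred on its own mean, among 12836 genes above 0 throughout and with at least 5 FPKM in 1 genotype or more. These distances rest on 6 pooled values a gene and are a description. dpy-2 and dpy-10, the head-to-head pair, were 0.09 apart, and dpy-10 was the third nearest gene to dpy-2. dpy-7 and dpy-10 were 0.11 apart, dpy-8 and sqt-1 0.12, and rol-6 and sqt-1 0.14. dpy-3 was the furrow gene farthest from its own class, 0.23 to 0.29 from the other 4 and nearer to sqt-1 (0.18). sqt-3 was 0.44 from rol-6 and 0.24 from dpy-2.

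Nearest to each furrow gene stood genes outside the member list. The hedgehog-related gene wrt-1 was closest to dpy-7 (0.07), the collagen col-168 to dpy-8 (0.06), M03B6.3 to dpy-2 (0.07), F22F4.1 to dpy-10 (0.07), and vha-13, a subunit gene of the vacuolar proton pump, to dpy-3 (0.09). dpy-9, a furrow collagen that is no member, was nearest to dpy-7 among the members (0.12), with 61.7 FPKM in the daf-2 triple mutant, 118 in daf-2, 163 in the nuo-6 triple mutant, 101 in nuo-6, 171 in the H3.3 double mutant and 212 in WT. dpy-4 and dpy-13 were nearest to sqt-1 (0.10 and 0.12). For rol-6 the nearest gene was hlh-8 (0.09), for sqt-1 F56D3.1 (0.07) and for sqt-3 the collagen col-154 (0.12).

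bli-1 and bli-2 were 1.19 apart, and bli-2 ranked 250 among all genes by closeness to bli-1. col-79, which shares the listed locus of bli-1, was the gene nearest to bli-2 (0.19), followed by col-71 (0.42) and col-110 (0.46). F37A4.5 was nearest to bli-1 (0.50), followed by Y47G6A.15 (0.50). Both bli genes lay 2.14 or more from every furrow, rol and sqt member. bli-6 and rol-1 had bli-1 as their nearest member, at 0.83 and 0.82, but bli-1 ranked only 283 and 305 among all genes by closeness to them.

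The members were set beside the 152 other genes that the authors' tables annotate as structural constituents of cuticle. This group was formed after these data were known and holds the other shape collagens too. In daf-2 against WT, 68 of 112 compared cuticle genes were lower and 21 higher (median log2 ratio -1.23), beside 8 and 0 of the 10 members (median -1.12). In the daf-2 triple mutant against the H3.3 double mutant, 62 of 138 were higher and 47 lower (median 0.10), beside 0 and 8 of the members (median -1.36). In the daf-2 triple mutant against daf-2, 73 of 136 were higher and 17 lower, and in nuo-6 against WT 48 of 113 were higher and 17 lower. In the nuo-6 triple mutant against nuo-6, 49 of 113 were lower and 9 higher. These counts were read off the same call and carry no test.

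**Figure D4:**
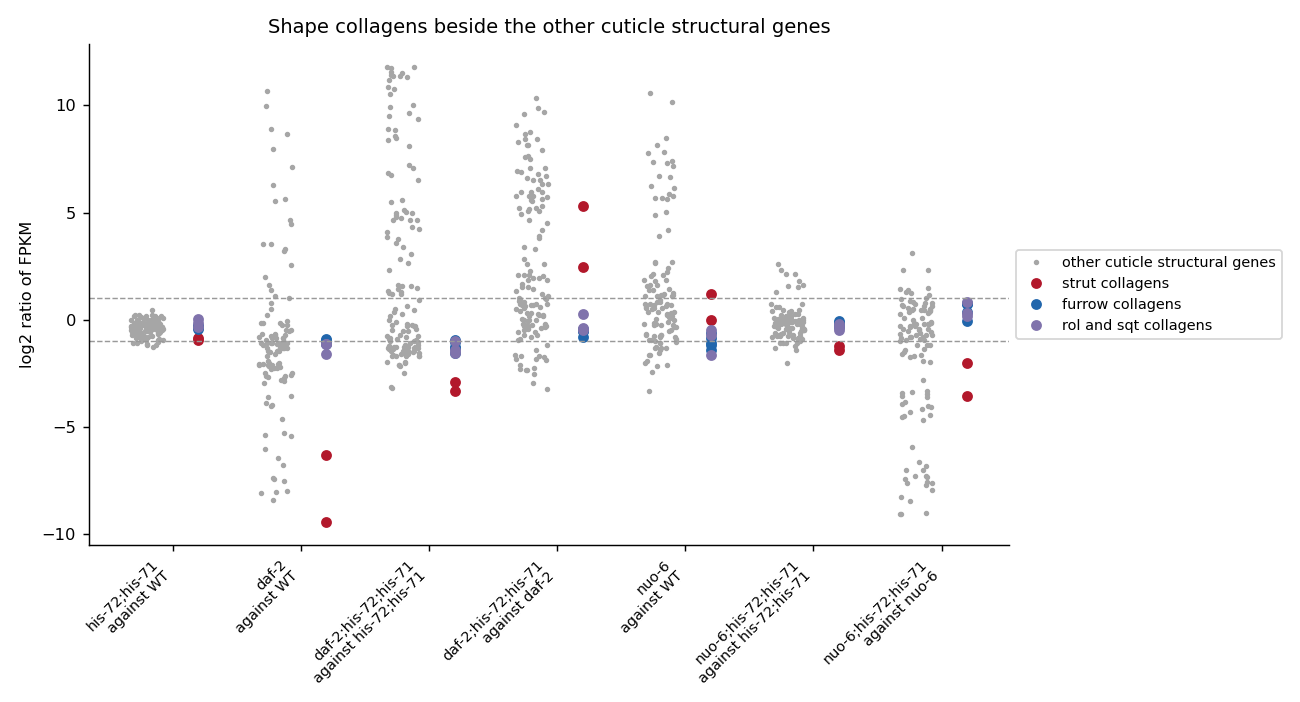
Log2 ratios of FPKM in the 7 comparisons for the other genes annotated as structural constituents of cuticle (grey, each point a gene) and for the strut, furrow, and rol and sqt collagens (coloured points beside them), with dashed lines at 2-fold. In the daf-2 triple mutant against the H3.3 double mutant the grey points spread both ways, 62 of 138 higher and 47 lower, while the members lie between -3.32 and -0.95.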

How the data were processed

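Libraries were made from total RNA of whole late L4 worms, 30 samples in 6 genotypes, and samples were grouped by their labels. The authors computed the deposited FPKM values before deposit, with Cufflinks, Cuffdiff, STAR and FastQC listed as tools, per the submitters' processing notes. Versions, genome build, strandedness and how the 5 replicates were combined are not given in the sources used here. Depth per sample is unknown: in low values FPKM times transcript length lay within 0.1 of a whole multiple of a unit in at most 22.8% of cases, where 20% is given by evenly spread values.

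Values were compared as deposited, with no pseudocount or rescaling, as ratios in 7 comparisons (Python 3.11.15, pandas 2.3.3). Genes listed at 0 were left out. The ratio and the call rule were checked on simulated data. Gene positions are from the WBcel235 annotation, in which 20179 genes were found by ID. Alternatives covered the ratio, the minimum level, 2 scalings and a pseudocount.

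The members, lists and call rule were chosen with earlier results of these data known. Genes named beside the members are the list genes with the largest called ratios, up to 4 a list, and genes among the 3 nearest profiles of each member, of which 1 is not reported here. dpy-9, dpy-4, dpy-13, bli-6, rol-1, dpy-14, dpy-17 and the genes sharing a locus were also named where a result touches them, after their values were seen. No sequences were used here.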

Additional observations from a re-analysis of the deposited data

Results flagged for a closer look

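The results in this part are members for which H3.3 loss, or a mutation with and without H3.3, moved the value in opposite directions in 2 backgrounds, with effects at least 2-fold apart. Each effect is a single ratio of pooled values, and no difference was tested. Values are differences of log2 ratios.

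Between the daf-2 and WT backgrounds the effect of H3.3 loss differed by 6.11 for bli-1 and 3.43 for bli-2, both higher in the daf-2 triple mutant than in daf-2 and lower in the H3.3 double mutant than in WT. Between the daf-2 and nuo-6 backgrounds it differed by 7.29 for bli-1 and 6.04 for bli-2. Summed dauer cuticle genes stood at 2623 FPKM in the daf-2 triple mutant and 9.90 FPKM in daf-2, and summed adult cuticle genes at 5.87 FPKM in the nuo-6 triple mutant and 2240 FPKM in nuo-6. Their part in these values was not tested.

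In the same pair of backgrounds, daf-2 less nuo-6, the effect on furrow collagens had the other sign, at -1.28 for dpy-2, -1.26 for dpy-7, -1.12 for dpy-8 and -1.15 for dpy-10. With each comparison scaled to an equal median ratio of the epidermal genes, these 4 differences were -0.56, -0.54, -0.41 and -0.43, all under 2-fold, and dpy-8 was lower in both backgrounds (log2 ratios of -0.45 and -0.05). Between the nuo-6 and WT backgrounds, nuo-6 less WT, the effect differed by 1.05 for dpy-2, 1.03 for dpy-7, 1.05 for dpy-10 and 1.17 for sqt-3. Epidermal scaling gave 0.71, 0.70, 0.72 and 0.84, again under 2-fold. For bli-2 the effect of nuo-6 without H3.3 less that with H3.3 was -2.61. The differences of bli-1 and bli-2 kept opposite directions and stayed over 2-fold under both scalings, which were added for these differences after the data were seen.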

How the results depend on the processing

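No called member changed direction under any of the 8 alternatives, of which leaving out the 3 members that share a locus was added after the data were seen. No paired analysis was possible because each genotype has 1 pooled value, and for the same reason leaving out a replicate was not run. Main counts are those of the report.

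With a ratio of at least 1.5, lower calls were 2 in the H3.3 double mutant against WT, 1 in the daf-2 triple mutant against daf-2 and 7 in nuo-6 against WT, and 4 members were higher in the nuo-6 triple mutant against nuo-6. With a ratio of at least 3, 2 members were lower in daf-2 against WT and 2 in the daf-2 triple mutant against the H3.3 double mutant, 1 was lower and 0 higher in nuo-6 against WT, and 0 were lower in the nuo-6 triple mutant against the H3.3 double mutant. With genotypes scaled to equal median ratios, over all compared genes or over epidermal genes, 1 member was lower in the H3.3 double mutant against WT. dpy-10 became lower in daf-2 against WT with epidermal scaling (9 members) and lost its call in the daf-2 triple mutant against the H3.3 double mutant with scaling over all compared genes (7 members). Epidermal scaling gave 4 lower in the daf-2 triple mutant against the H3.3 double mutant and 1 in nuo-6 against WT. For counts under either scaling, or at 20 FPKM, the share of all compared genes is not given here. At 20 FPKM in the higher genotype, 0 members were higher in the daf-2 triple mutant against daf-2. Without bli-1, bli-2 and dpy-8, 5 members were lower in each daf-2 comparison with an H3.3-matched control, 0 were higher in the daf-2 triple mutant against daf-2 or nuo-6 against WT, and 0 were lower in either comparison of the nuo-6 triple mutant.

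A pseudocount of 1 FPKM or no minimum level changed no call of a member. Depth, and so the counting error of low values such as bli-1 in daf-2, is unknown.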
